A study of Mus musculus with 18 samples.

Results

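The change of each gene between 12 and 48 h in culture was compared between genotypes in cultures of dorsal root ganglion (DRG) cells from mice, the ganglia beside the spinal cord that house the sensory neurons of body and limbs. The comparison used 12 of the 18 cultures of the study: 3 wild-type (WT) and 3 Dynlrb1(tm1a/+) heterozygous (HET) cultures at 12 h, and 3 of each at 48 h. The tm1a allele is a knockout-first insertion, and the mice carry it on 1 copy of Dynlrb1, so it is not limited to the neurons of the culture. No age, sex or treatment of the mice is in the labels, nor whether animals were pooled. The measure for each of 17198 genes was the difference of change, the log2 change from 12 to 48 h in HET minus that in WT, on the scale log2(normalized count + 1). A positive value means that the gene ended higher in HET, relative to its own 12 h level, than in WT. The genes described are those with the largest differences, among genes with a mean of at least 50, that held their sign and an unadjusted p under 0.05 both with all cultures and without HET 48 h replicate 3, together with 26 gene lists chosen for sensory neurons and their companion cells.

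Cytoplasmic dynein is the motor of retrograde axonal transport, which moves along microtubules from the nerve ending to the soma, and Dynlrb1 is one of its light chains. Dissection cuts the axons of DRG neurons, so a culture starts as an injury. Signals carried back along the axon by dynein are among those that inform the cell body of such damage. Injured sensory neurons are known to switch on regeneration-associated genes such as Sprr1a and Gap43 and to lower many genes of the mature sensory neuron, among them nociceptor receptors and ion channels.

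Dynlrb1 itself separated the genotypes at each time. Its normalized counts at 12 h were 6674, 6589 and 5321 in WT and 3298, 4087 and 3414 in HET, and at 48 h they were 5995, 5677 and 6372 in WT and 3314, 3482 and 3243 in HET. Its difference of change was -0.06 (SE 0.17), so the lower HET level was about equally low at both times. Neuronal identity was present in all groups: the 18 measured of 19 pan-sensory markers summed to between 595100 and 807700 normalized counts in the 12 cultures, and no marker was at 0. Across genes, r between cultures of the same group lay between 0.978 and 0.990. Xist, the RNA of the inactive X chromosome, ranged from 83.4 to 18320 in WT and from 62.5 to 12850 in HET at 12 h, and from 19.0 to 17290 in WT and from 2450 to 11980 in HET at 48 h. With log2 Xist as a covariate, limma still called 0 genes for the difference of change, and 1837 genes had an unadjusted p under 0.05. The cultures are described as biological repeats, without their animals, and p-values measure only the spread between these cultures.

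No gene passed the test of the difference of change. In limma with Benjamini-Hochberg adjustment, 0 of 17198 genes (0%) had an adjusted p under 0.05, and the smallest adjusted p was 0.548. No other tool was run, since the deposited values are not raw counts. At an unadjusted p under 0.05 there were 1534 genes (8.92%), 707 with a positive difference (4.11%) and 827 with a negative one (4.81%). Without HET 48 h replicate 3 these were 499 (2.9%) and 525 (3.05%), and without WT 48 h replicate 2 they were 364 and 310. Without HET 12 h replicate 5 the negative count was 491. The counts of genes below are therefore counts at an unadjusted p, to be read against 4.11% and 4.81%, and the single values are descriptions with their errors.

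Within each genotype, time in culture moved many genes. The test of 48 against 12 h called 8098 genes in WT (47.1%), of which 5152 were higher at 48 h (30%) and 2946 lower (17.1%). It called 2442 genes in HET (14.2%), 1820 higher (10.6%) and 622 lower (3.62%). The HET count depended on single cultures. It was 4886 without HET 48 h replicate 3 and 1123 without HET 12 h replicate 1. It was 0 in limma without HET 48 h replicate 1, HET 48 h replicate 2 or HET 12 h replicate 2, with 3729, 3881 and 4155 genes at an unadjusted p under 0.05 in these fits. Calls in HET below are those of the fit to all cultures. On the authors' plain adjusted columns, 52.6% of the WT calls and 51.9% of the HET calls were higher, in place of 63.6% and 74.5%, and the median WT change of all genes was 0.0069 in place of 0.11.

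Genes that changed in 1 genotype mostly changed in the same direction in the other, and the HET change was mostly the smaller. Among 1027 genes with a mean of at least 50 that rose in WT by at least 1 log2 unit, 1026 had a positive change in HET, and the HET change was the smaller in 96.3%. Their median change was 1.36 in WT and 0.87 in HET. Among 797 genes chosen in WT that fell, the medians were -1.41 and -0.78, and the HET change was smaller in 99.2%. A gene chosen for a large change in 1 genotype tends to change less in the other, so the genes were also chosen in HET. The 353 genes called in HET that rose there by at least 1 had medians of 1.85 in WT and 1.32 in HET, and 87% of them changed less in HET. The 175 genes called in HET that fell there by as much had medians of -2.17 in WT and -1.35 in HET, and 93.7% changed less in HET. By culture, the median of the 353 genes was 1.97, 2.12 and 1.47 in WT replicates 1, 2 and 3 and 1.74, 1.58 and 0.70 in HET replicates 1, 2 and 3. HET replicates 1 and 2 lay between WT replicates 1 and 3 here, and HET replicate 3 lay alone below them. For the 175 genes that fell, the values were -2.20, -2.42 and -1.87 in WT and -1.92, -1.46 and -0.73 in HET, with WT replicate 2 again the farthest from 12 h and HET replicate 3 the nearest. Without HET replicate 3 the HET median of the 353 genes was 1.66, and without WT replicate 2 their WT median was 1.72.

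**Figure D1:**
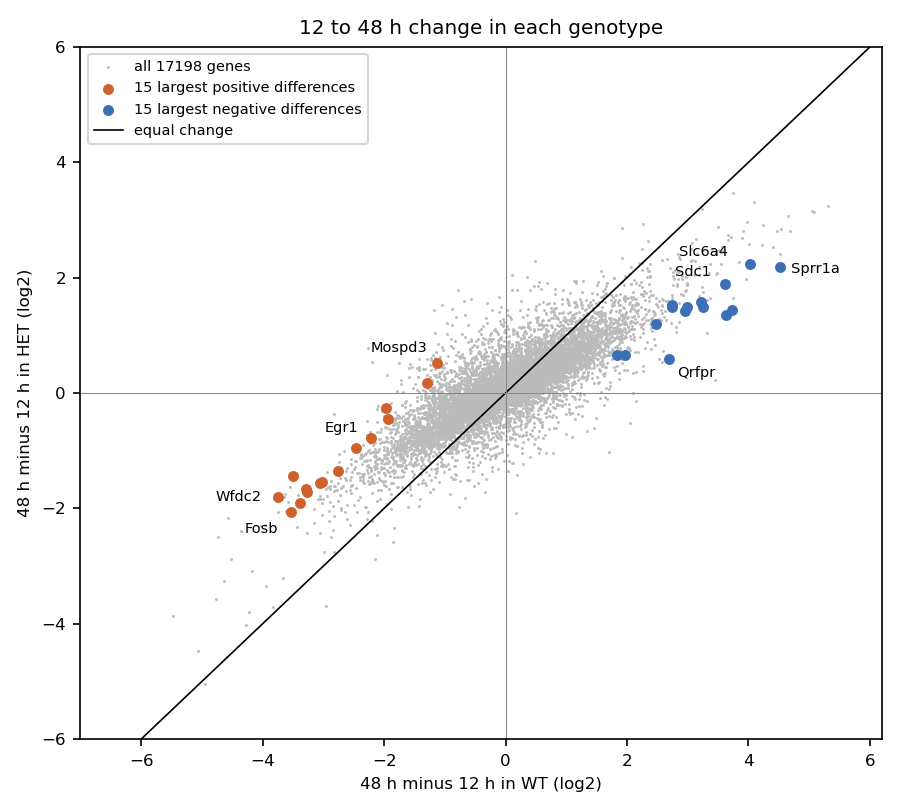
Log2 change from 12 to 48 h in WT (horizontal axis) and HET (vertical axis) for each of 17198 genes (grey), with the 15 named genes of largest positive (orange) and largest negative (blue) difference of change; the line marks equal change. Most named genes fall between the horizontal axis and the line of equal change, the same direction in both genotypes and a smaller change in HET.

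The largest negative differences belonged to genes that rose in WT. All 15 named genes rose in WT, by 1.84 to 4.52 log2 units, and 10 of the 15 also rose in HET past the threshold, as 10.6% of all genes did. Their differences of change ran from -2.33 to -1.18, each with a limma adjusted p of 0.548. The next gene that met the rule for named genes was Cyp4f16 at -1.16. In all 15 the WT and HET cultures overlapped at 12 h, and at 48 h every HET culture lay below every WT culture, which was so for 14.4% of all genes. The differences are part of how these genes were chosen, so these counts are descriptions.

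Sprr1a, a small proline-rich protein that injured sensory neurons make and that promotes neurite growth, had the largest negative difference among genes that met this rule. Its normalized counts were 370, 209 and 197 in WT and 412, 70.8 and 327 in HET at 12 h. At 48 h they were 4306, 13350 and 3263 in WT against 1265, 1386 and 528 in HET. All WT cultures at 48 h were thus above all HET cultures, with WT replicate 2 far above the others. The difference of change was -2.33 (SE 0.87), -1.89 without HET 48 h replicate 3 and -1.72 without WT 48 h replicate 2. Nts, which encodes the peptide neurotensin, went from 1331, 1392 and 1392 to 8162, 13240 and 7265 in WT. In HET it went from 1649, 1289 and 1931 to 5001, 6671 and 2947. Nts rose in both genotypes, and its cultures at 48 h did not overlap. Its difference was -1.22 (SE 0.39).

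The promoters of Sprr1a and Nts were the only ones among the 13 of these 15 genes with a RefSeq promoter that held the AP-1 motif TGAGTCA, the site of Fos and Jun family dimers. They are shown because the genes of that family are among the members described further on. The 250 bases before the annotated start are given 5′ to 3′ on the strand of the gene, from RefSeq on GRCm38.p6, with the motif in capitals. Sprr1a lies on the minus strand at chr3:92485882-92486131 and Nts on the minus strand at chr10:102490419-102490668.
Sprr1a: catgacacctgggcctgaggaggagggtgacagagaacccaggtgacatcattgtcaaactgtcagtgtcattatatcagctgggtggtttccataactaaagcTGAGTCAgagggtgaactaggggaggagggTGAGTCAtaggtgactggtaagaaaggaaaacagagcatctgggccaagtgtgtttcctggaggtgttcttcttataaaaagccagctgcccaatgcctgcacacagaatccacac
Nts: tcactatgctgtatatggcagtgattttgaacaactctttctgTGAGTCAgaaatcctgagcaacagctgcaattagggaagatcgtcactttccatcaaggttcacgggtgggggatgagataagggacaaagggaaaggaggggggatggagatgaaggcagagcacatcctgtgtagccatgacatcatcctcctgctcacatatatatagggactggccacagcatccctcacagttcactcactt
Sprr1a had matches that began 146 and 116 bases before the start, and Nts had 1 that began 207 bases before it. The motif was searched on both strands and stood in 4.43% of 27025 promoters of this length, in 6 of the 29 regeneration-associated genes with a promoter (20.7%) and in 0 of the 10 named genes of positive difference with one. The cyclic AMP response element (CRE, TGACGTCA, in 1.62% of promoters), its half-site TGACG (17.9%), which every CRE also holds, and the CArG box (1.4%) were searched in the same way. The named genes of negative difference held 0, 3 and 1 of these in 13 promoters. A match is a description of these letters, not of a bound site.

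Other named genes of negative difference showed the same separation at 48 h. Sdc1, which encodes the heparan sulfate proteoglycan syndecan-1, went from 1835, 1886 and 3351 to 17760, 55900 and 21490 in WT, and from 2185, 1253 and 2985 to 7557, 12410 and 4385 in HET. Its difference was -1.73 (SE 0.62). Adra2a, the alpha-2A adrenergic receptor, had 1203, 3557 and 1184 at 48 h in WT against 423, 548 and 254 in HET, with 12 h values from 102 to 211 in both genotypes. Its difference was -1.76 (SE 0.60). Pcolce2, an enhancer of procollagen processing, had 16800, 29440 and 14970 at 48 h in WT against 7522, 8458 and 4342 in HET (difference -1.25, SE 0.41). In each of these genes WT replicate 2 was the highest culture and HET replicate 3 the lowest.

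Slc6a4, the serotonin transporter, had a difference of -1.79 (SE 0.68). Qrfpr, a receptor for an RFamide peptide, had -2.10 (SE 0.67) and did not pass in HET, where its change was 0.60. Lamb3, the beta-3 chain of laminin-332, had -1.48 (SE 0.50), and Rnf128, an E3 ubiquitin ligase, had -1.18 (SE 0.39). The others were Oas1e (-2.28), Gm19424 (-2.27), B4galnt2 (-1.65), Wfdc3 (-1.54), AI847159 (-1.31) and Prr32 (-1.28). Oas1e belongs to a family of close copies, and how reads were divided among them is not given in the sources used here, so its value is uncertain.

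The largest positive differences belonged to genes that fell in WT. All 15 named genes fell in WT, by 1.12 to 3.74 log2 units, and 8 of the 15 fell in HET past the threshold, as 3.62% of all genes did. Their differences ran from 1.42 to 2.06, each with a limma adjusted p of 0.548, and the next gene that met the rule was Gm7534 at 1.41. At 48 h every HET culture lay above every WT culture in 9 of the 15, against 9.57% of all genes. The differences are part of how these 15 genes were chosen, so the counts here are descriptions. At 12 h, 12 of the 15 overlapped and 3 had every HET culture below every WT culture, as 8% of all genes did: Mospd3, Atp1b2 and Creb5. In Creb5 (difference 1.46, SE 0.54), a CREB-family transcription factor, the difference came from 12 h, where HET was lower by 1.61, and at 48 h HET was lower by 0.14. The same held for Mospd3 (1.65, SE 0.58), with -1.30 at 12 h and 0.35 at 48 h. The positive differences thus joined genes that separated at 48 h with a few that separated at 12 h. In Wipf3, Egr1 and Camk2a the cultures overlapped at both times. Wipf3 was at 802, 1538 and 2720 in WT and 991, 787 and 906 in HET at 12 h.

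Fosb, a Fos-family transcription factor, had normalized counts of 1758, 1954 and 2103 in WT and 1583, 2875 and 1918 in HET at 12 h. At 48 h they were 136, 134 and 252 in WT against 322, 405 and 922 in HET. The groups overlapped at 12 h and not at 48 h, where HET replicate 3 was the highest. Its difference was 1.48 (SE 0.52), and 1.03 without that culture. Egr1, a zinc-finger factor of the same immediate early class, had 1683, 824 and 1053 in WT against 2313, 1324 and 2608 in HET at 48 h, which overlap. Its difference was 1.43 (SE 0.49). Camk2a, the alpha subunit of the calcium/calmodulin-dependent kinase II, had 924, 512 and 1324 in WT against 1952, 1320 and 3262 in HET at 48 h, which overlap by a little. Its difference was 1.501 (SE 0.46).

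The other named genes of positive difference include channels, pumps and receptors. Aqp4, a water channel, was at 18.7, 14.2 and 23.8 in WT against 39.9, 52.7 and 98.5 in HET at 48 h, with a difference of 1.55 (SE 0.54). Atp1b2, a beta subunit of the sodium pump, had 1.49 (SE 0.53), and Gpr37l1, an orphan receptor of glia, had 1.49 (SE 0.47). Selp, the P-selectin of endothelium and platelets, had 1.48 (SE 0.54). Itih5, a hyaluronan-binding serum protein family member, was at 109, 38.3 and 97.5 in WT against 151, 179 and 348 in HET at 48 h, and had a difference of 1.61 (SE 0.50). Chrnb4, a nicotinic receptor subunit, had 1.42 (SE 0.50), Wipf3 1.71 (SE 0.63), Sfrp5 1.48 (SE 0.52), Wfdc2 1.94 (SE 0.68) and 1700011I03Rik 2.06 (SE 0.74).

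**Figure D2:**
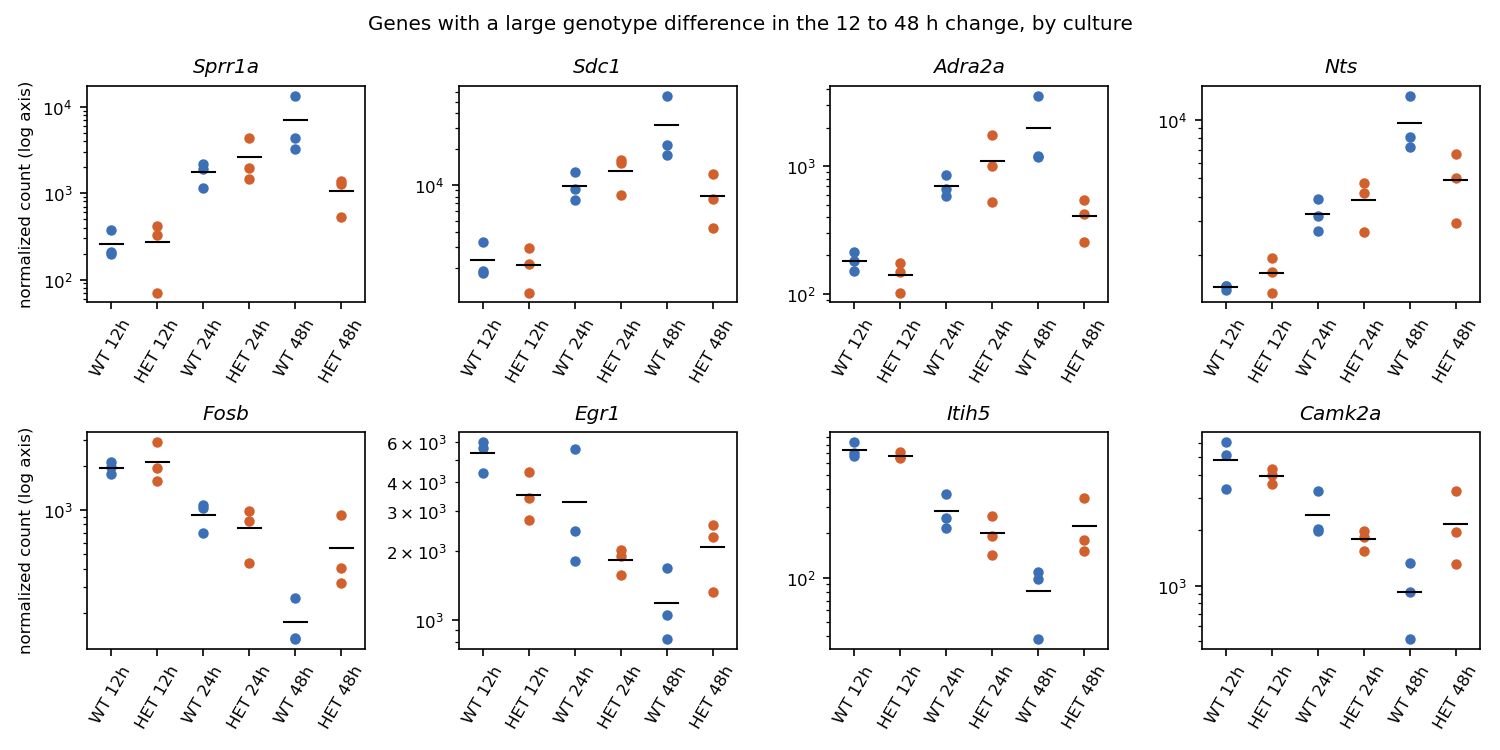
Normalized counts on a log axis for 4 named genes of negative (top) and 4 of positive (bottom) difference of change, 1 point per culture (blue WT, orange HET) and a bar at the mean of each group of 3. At 48 h the HET cultures lie below the WT cultures in the top row; in the bottom row they lie above for Fosb and Itih5 and overlap for Egr1 and Camk2a.

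The 3 genes of lowest p were others. Jph4, junctophilin 4 of the neuronal endoplasmic reticulum and plasma membrane junctions, fell in both genotypes. It was at 4097, 3873 and 4510 in WT and 3840, 3969 and 3212 in HET at 12 h, and at 1469, 1138 and 1671 in WT against 2386, 2123 and 2425 in HET at 48 h. Its difference was 0.89 (SE 0.20) and was 0.86 without HET 48 h replicate 3, so this gene hardly depended on that culture. Prdm8, a transcriptional repressor, went from 651, 671 and 669 to 415, 396 and 476 in WT. In HET it was at 540, 622 and 493 at 12 h and at 593, 560 and 576 at 48 h. Prdm8 fell in WT and changed by 0.07 in HET, a difference of 0.70 (SE 0.15). Gm15441 had -2.73 (SE 0.58) at counts under 20. The limma adjusted p of all 3 was 0.548.

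The means at 24 h took no part in choosing the genes, although the 24 h cultures entered the estimate of the spread, and there the differences mostly had the opposite sign. In all 15 genes of negative difference the HET mean was above the WT mean at 24 h, with a median of 0.39 (log2) and a range from 0.10 to 0.63, against medians of -0.14 at 12 h and -1.60 at 48 h. In 14 of the 15 genes of positive difference the HET mean was below the WT mean at 24 h. Their median was -0.49, against -0.25 at 12 h and 1.22 at 48 h. The exception was Selp at 0.01. Over all 645 genes that met the rule before the largest were taken, 312 of 340 with a negative difference (91.8%) were above WT at 24 h. Of 305 with a positive difference, 23 (7.54%) were, against 52.9% of all genes. With the directions missing from the authors' plain adjusted columns as covariates, these shares were 92.1%, 7.21% and 54.2%. The named genes then gave 14 of 15 above and 15 of 15 below. As far as the normalized counts lack those directions too, cultures of different groups are not fully independent of each other.

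The opposite sign at 24 h was small for single genes. Of the 30 named genes, 2 of negative difference (Oas1e and AI847159) had every HET culture above every WT culture at 24 h, as 2.81% of all genes did. Another 2 of positive difference (Camk2a and Atp1b2) had every HET culture below, as 2.79% did. Between genotypes at 24 h, 198 genes (1.15%) reached an unadjusted p under 0.05, and limma called 1 gene (0.00581%), Dynlrb1. Sprr1a shows the course. Its counts at 24 h were 1134, 2159 and 1909 in WT and 4371, 1463 and 1959 in HET, so every HET culture at 24 h was above every HET culture at 48 h, while every WT culture at 48 h was above every WT culture at 24 h. Adra2a had 588, 858 and 667 in WT and 1752, 528 and 1003 in HET at 24 h. In both genes HET replicate 1 was the highest culture at 24 h, and HET replicate 2 lay below the WT mean (1734 and 704.5). In Aqp4, of positive difference, HET replicate 1 was the lowest at 27.0, and HET replicate 2, at 82.1, lay above the WT mean of 77.9. No fit left out a 24 h culture, so how far the opposite sign rests on HET 24 h replicate 1 was not tested. The members move together across cultures, so the counts over genes are not counts of independent events.

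**Figure D3:**
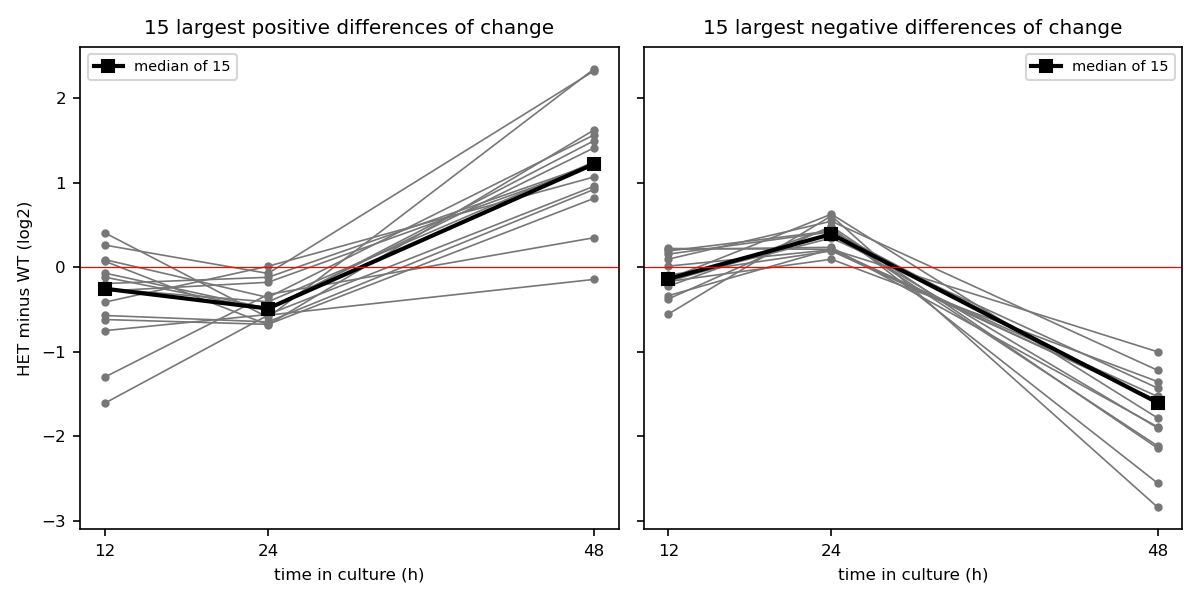
Difference of the HET and WT means (log2) at 12, 24 and 48 h in culture for each of the 15 named genes of positive (left) and of negative (right) difference of change, with the median of each 15 in black. The medians go from -0.25 to -0.49 to 1.22 on the left and from -0.14 to 0.39 to -1.60 on the right.

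Among the gene lists, the immediate early genes had the highest median difference with all cultures, at 0.64 against -0.01 over all genes. These genes encode transcription factors and regulators that are switched on within minutes of calcium entry, growth factors or stress. Of 21 measured, 20 had a positive difference, and 9 of 21 reached an unadjusted p under 0.05, all positive: Fosb, Egr1, Egr4, Fos, Nr4a1, Egr3, Fosl1, Nr4a2 and Klf4. In WT 16 of the 21 fell from 12 to 48 h, and in HET 4 did, against 17.1% and 3.62% of all genes. Without HET 48 h replicate 3 the median was 0.37, below those of the Schwann cell and satellite glia (0.44) and non-peptidergic nociceptor (0.40) lists, and 5 members reached that p, and without WT 48 h replicate 2 the median was 0.57. The list had a mean log2 level, relative to the 12 cultures, of 0.35 to 0.60 in WT and 0.23 to 0.40 in HET at 12 h. At 48 h it was -0.65, -0.82 and -0.52 in WT and -0.32, -0.40 and 0.21 in HET replicates 1, 2 and 3. All HET cultures were above all WT cultures at 48 h, and HET replicate 3 stood apart.

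Fos had normalized counts of 6097, 6212 and 5521 in WT and 5362, 8634 and 6435 in HET at 12 h. At 48 h these were 617, 560 and 1033 in WT against 1106, 1831 and 3620 in HET, with no overlap. Fos fell in both genotypes, by 3.06 in WT and by 1.78 in HET, a difference of 1.28 (SE 0.51). Nr4a1, an orphan nuclear receptor, was at 375, 221 and 217 in WT against 424, 445 and 737 in HET at 48 h, with a difference of 1.18 (SE 0.41). Egr4 had 1.29 (SE 0.53) and Egr3 0.996 (SE 0.39). In Egr3 the cultures separated at 12 h, where HET was lower by 0.67, and overlapped at 48 h. Other members had values near 0. Dusp1, a phosphatase that switches off MAP kinases, had -0.02 (SE 0.27), and Junb had 0.02 (SE 0.17).

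The CRE half-site was the most frequent of the motifs searched in these promoters. It stood in 11 of 16 immediate early genes with a RefSeq promoter (68.8%), against 17.9% of all promoters. The full CRE stood in 2, Btg2 and Dusp1, while AP-1 and CArG matches were in 0 of 16 in this window. The promoters of Fos and Nr4a1 are shown as those of 2 members with several half-sites whose cultures did not overlap at 48 h, chosen after their values were seen, with the half-site in capitals, on GRCm38.p6. Fos lies on the plus strand at chr12:85473640-85473889 and Nr4a1 on the plus strand at chr15:101266596-101266845. In Nr4a1 the matches lie on the other strand and read CGTCA here.
Fos: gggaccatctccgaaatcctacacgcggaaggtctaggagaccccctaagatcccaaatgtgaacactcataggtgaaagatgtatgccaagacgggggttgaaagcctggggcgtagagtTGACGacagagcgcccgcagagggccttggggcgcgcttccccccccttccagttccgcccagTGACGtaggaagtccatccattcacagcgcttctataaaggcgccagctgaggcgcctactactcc
Nr4a1: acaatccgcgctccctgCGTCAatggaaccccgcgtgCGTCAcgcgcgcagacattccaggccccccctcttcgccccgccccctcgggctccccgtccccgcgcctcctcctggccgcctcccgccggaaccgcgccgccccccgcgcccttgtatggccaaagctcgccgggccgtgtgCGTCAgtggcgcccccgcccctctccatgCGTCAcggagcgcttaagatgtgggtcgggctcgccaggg
The matches began 129 and 66 bases before the start in Fos, and 233, 213, 69 and 40 bases before it in Nr4a1. Junb and Dusp1, whose differences were near 0, also held the half-site.

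**Figure D4:**
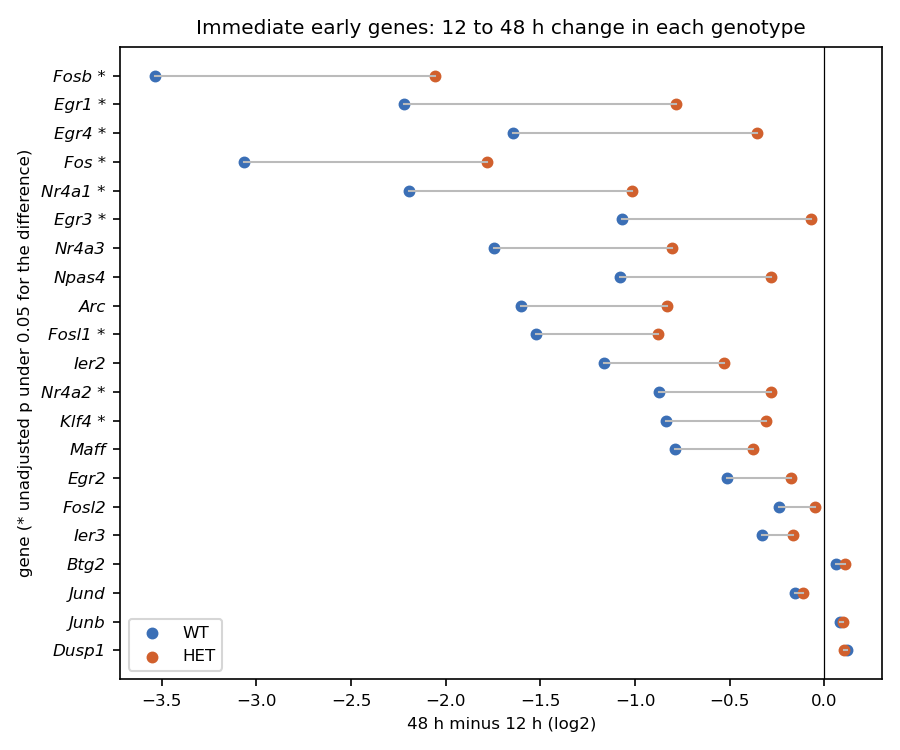
Log2 change from 12 to 48 h of the 21 immediate early genes in WT (blue) and HET (orange), ordered by the difference of change; an asterisk marks an unadjusted p under 0.05. The HET point lies to the right of the WT point in 20 of 21 genes, by up to 1.48 in Fosb.

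The regeneration-associated genes divided. Their median difference was -0.07, and 9 of 38 measured members reached an unadjusted p under 0.05, all negative. There were 6 negative and 1 positive without HET 48 h replicate 3, when the median was -0.27. The 9 were Sprr1a, Csrp3, Ecel1, Nts, Gpr151, Itga7, Tubb2a, Hspb1 and Gap43. Ecel1, a membrane peptidase induced by nerve damage, went from 1710, 819 and 986 to 7960, 24960 and 9271 in WT and from 1159, 411 and 869 to 3643, 4793 and 1726 in HET, a difference of -1.40 (SE 0.65). Csrp3, a muscle LIM protein that injured sensory neurons also make, had -2.10 (SE 0.86) at counts under 80. Gap43, a growth cone protein, had 16650, 19150 and 20340 in WT against 13860, 16090 and 13080 in HET at 48 h, with a difference of -0.47 (SE 0.18). It rose in WT, by 0.52, and changed by 0.04 in HET.

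Transcription factors of that list had values near 0. Atf3, the injury-induced factor most used as a marker of axotomised neurons, had -0.01 (SE 0.30), Jun had 0.18 (SE 0.15) and Sox11 -0.06 (SE 0.30). The list as a whole stood at 0.31, 0.68 and 0.36 in WT and at -0.00, 0.19 and -0.03 in HET replicates 1, 2 and 3 at 48 h, which do not overlap. At 24 h it stood at 0.20 to 0.34 in WT and at 0.21 to 0.46 in HET. The epithelial-type keratin and injury list, 18 of 22 measured, had a median of -0.21, with Sprr1a and Krt19 (-1.88, SE 0.83) at an unadjusted p under 0.05. The median was -0.074 without WT 48 h replicate 2, and 1 member reached that p without HET 48 h replicate 3.

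Of the markers of non-peptidergic nociceptors, neurons that sense mechanical pain and itch, 12 of 17 fell in WT and 7 in HET, against 17.1% and 3.62% of all genes. At 48 h, 9 of 17 had every HET culture above every WT culture, against 9.57% of all genes. The list was already higher in HET at 12 h, by a median of 0.63. For the difference of change it had a median of 0.59, with 15 of 17 members positive and 3 of 17 at an unadjusted p under 0.05. Mrgprd, the receptor that defines these neurons, was at 3150, 5521 and 6167 in WT and 5544, 13030 and 7854 in HET at 12 h. At 48 h it was at 199, 73.1 and 381 in WT against 618, 839 and 6163 in HET. HET replicate 3 was far above the other HET cultures, and the difference of 2.25 (SE 0.96) was 1.22 without it. Scn11a, the sodium channel Nav1.9, had 0.91 (SE 0.38) and Lpar3, a lysophosphatidic acid receptor, 1.06 (SE 0.44). Without HET 48 h replicate 3 none of the 17 kept an unadjusted p under 0.05 (0 of 17), and the median was 0.40. Without WT 48 h replicate 2 it was 0.31. Ret, the receptor of glial-derived growth factors in these neurons, had -0.14 (SE 0.15).

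The peptidergic nociceptor list had a median of 0.31, with Grpr (1.38, SE 0.40) and Kit (0.75, SE 0.21) positive and Adcyap1 (-0.80, SE 0.21) negative at an unadjusted p under 0.05. The median was 0.15 without HET 48 h replicate 3. Kit, a receptor tyrosine kinase, was at 1340, 1081 and 1422 in WT against 1515, 1664 and 1946 in HET at 48 h. Adcyap1, which encodes the peptide PACAP, rises after nerve injury, and rose here in WT, from 12750, 14750 and 13910 to 28240, 32950 and 31030. In HET it was at 16920, 10250 and 13810 at 12 h and at 17940, 19180 and 14620 at 48 h, below every WT culture. The large-fibre and proprioceptive list had a median of 0.21, with Etv1 (1.11, SE 0.44), Piezo2 (0.52, SE 0.22) and Cntnap2 (0.41, SE 0.17) at an unadjusted p under 0.05. In Cntnap2 every HET culture lay below every WT culture at 12 h, and the cultures overlapped at 48 h. The median HET minus WT level of the list was -0.21 at 12 h and 0.0014 at 48 h. Only 1 of its members reached that p without HET 48 h replicate 3, and without HET 12 h replicate 5 the median was 0.041. The pan-sensory list had 0.03, and its members went both ways: Scn10a, the sodium channel Nav1.8, had 0.73 (SE 0.24), and Isl1, a LIM-homeodomain factor, had -0.77 (SE 0.34). In these bulk cultures, fewer cells of a type and less RNA per cell cannot be told apart.

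Of the genes of the synaptic vesicle cycle, 25 of 34 fell in WT and 7 in HET, against 17.1% and 3.62% of all genes. The median difference was 0.27, 30 of 34 were positive, and 4 of 34 were positive and 1 negative at an unadjusted p under 0.05. The median HET minus WT level of the list was -0.14 at 12 h and 0.16 at 48 h. At 12 h its mean log2 level, relative to the 12 cultures, was 0.24 to 0.30 in WT. It was -0.0022 to 0.17 in HET, with no overlap. At 48 h it was -0.36 to -0.15 in WT and -0.18 to -0.071 in HET, which overlap. Sv2a, a vesicle membrane protein, was at 1111, 845 and 1101 in WT against 1528, 1456 and 1264 in HET at 48 h, a difference of 0.66 (SE 0.17). Its cultures did not overlap at 48 h, and at 12 h every HET culture lay below every WT culture. Syt4, a synaptotagmin, went the other way with -0.44 (SE 0.17).

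In the list of tubulins, microtubule-associated proteins and stathmins, 6 of 32 members were negative and 1 positive at an unadjusted p under 0.05, with a median of -0.08. Tuba1a, the alpha-tubulin of growing neurons, went from 41930, 47300 and 35900 to 104500, 115300 and 100600 in WT and from 55880, 52540 and 55320 to 97790, 87710 and 64930 in HET, a difference of -0.77 (SE 0.21). Here HET was above WT at 12 h and below it at 48 h, with no overlap at either time. Tubb2a had -0.60 (SE 0.18), Tubg1 -0.57 (SE 0.23) and Tuba1c -0.57 (SE 0.26), and Dpysl2, the collapsin response mediator CRMP2, had 0.39 (SE 0.12). Tubulin genes are near-identical copies, so their separate values are uncertain. Dynein and dynactin genes other than Dynlrb1 had a median of -0.08. Of 29, Bicd2, a cargo adaptor (-0.35, SE 0.15), and Dynll1, a light chain (-0.31, SE 0.13), were negative, and Dctn1, the p150 subunit of dynactin (0.28, SE 0.13), was positive at an unadjusted p under 0.05. None of the 29 reached that p in either direction (0 and 0) without HET 48 h replicate 3.

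The lysosome list had a median of -0.16, with 7 of 30 members negative at an unadjusted p under 0.05 and 0 positive, and 4 negative without HET 48 h replicate 3. Ctsd, the protease cathepsin D, rose in both genotypes. At 48 h it was at 89480, 110600 and 94220 in WT against 77560, 82250 and 63550 in HET, a difference of -0.52 (SE 0.17). Gusb, the lysosomal beta-glucuronidase, had -0.68 (SE 0.26). Of the 25 neuronal apoptosis and p53 genes, 5 were negative and 1 positive at that p, and 2 were negative without HET 48 h replicate 3. Hrk (-1.22, SE 0.52) and Pmaip1 (-1.10, SE 0.41), both BH3-only proteins that promote cell death, rose in WT by 2.63 and 2.39. Ccng1, a p53 target, had -0.58 (SE 0.18). Trim17, a ubiquitin ligase, had 0.95 (SE 0.34). The median of the list was 0.05.

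DNA replication genes mostly rose in both genotypes. Past the threshold were 35 of 40 in WT and 24 of 40 in HET, against 30% and 10.6% of all genes. The DNA replication list had the lowest median difference of the lists with all cultures at -0.41, with 7 of 40 negative at an unadjusted p under 0.05. Gins3, a subunit of the replicative helicase complex, was at 625, 693 and 507 in WT against 334, 351 and 347 in HET at 48 h, a difference of -0.90 (SE 0.21) that was the same without HET 48 h replicate 3. The list was not: its median was -0.17 without that culture, with 2 members negative and 1 positive at that p, and the regeneration-associated (-0.27), keratin (-0.24) and macrophage (-0.23) lists were then lower. That culture stood at -0.25 against 0.64 and 0.45 in HET replicates 1 and 2. The mitosis list had -0.34, and 0.02 without that culture. Of its 38 genes, 33 rose past the threshold in WT and 28 in HET. Mature sensory neurons do not divide, and which cells of the culture held these transcripts was not tested.

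**Figure D5:**
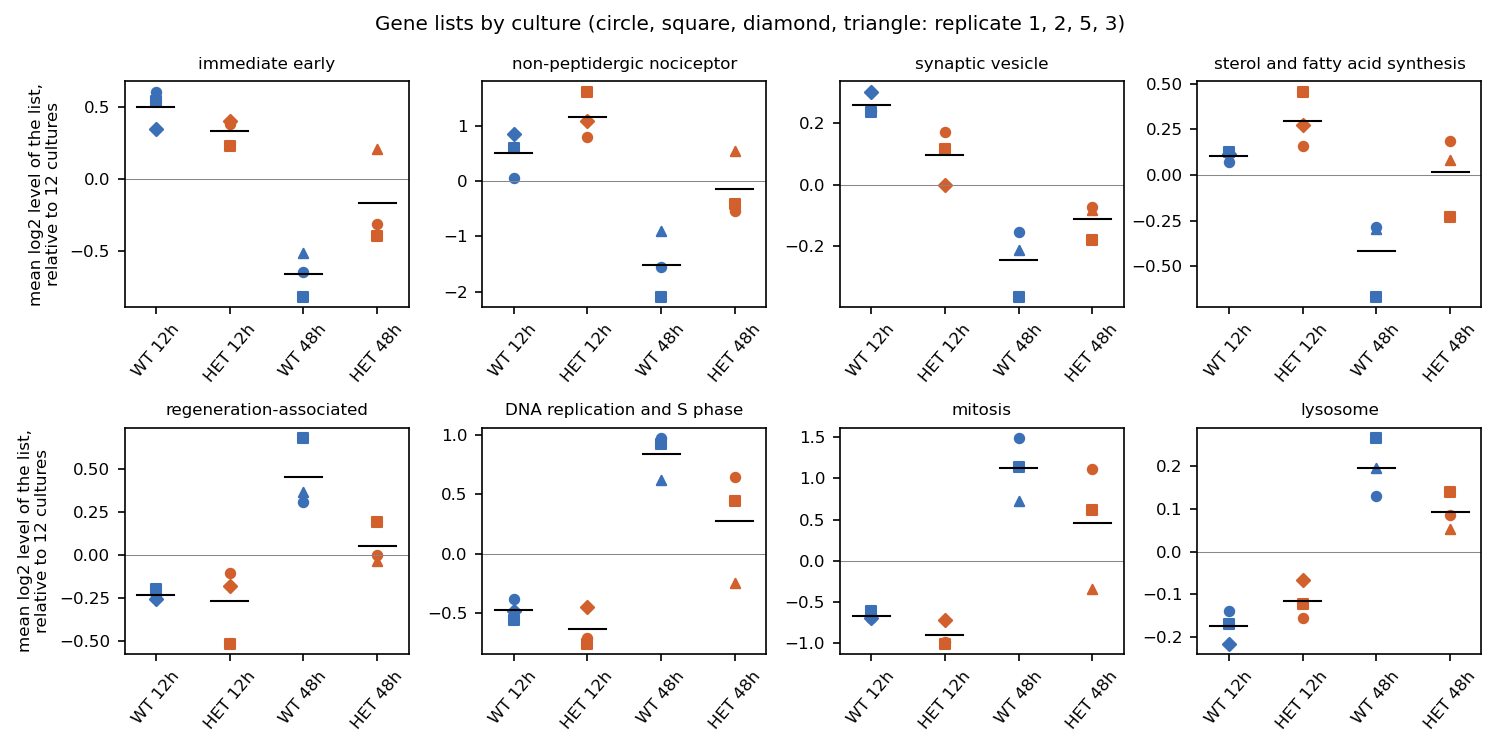
Mean log2 level of 8 gene lists relative to the 12 cultures, 1 point per culture (blue WT, orange HET; circle, square, diamond and triangle for replicates 1, 2, 5 and 3) and a bar at the mean of each group. At 48 h HET replicate 3 (triangle) lies alone in the immediate early, nociceptor, DNA replication and mitosis lists and close to the other HET cultures in the synaptic vesicle and regeneration lists.

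Sterol and fatty acid synthesis genes had a median of 0.25, with 29 of 32 positive and 2 of 32 at an unadjusted p under 0.05, among them Lss (0.53, SE 0.23), an enzyme of the cholesterol pathway. Without WT 48 h replicate 2 the median was 0.07. The interferon list had 0.24, with Gbp2 (1.31, SE 0.51) and Rsad2 (0.92, SE 0.41) at that p. It was reached by 0 members without HET 48 h replicate 3, and without WT 48 h replicate 2 the median was 0.16. Heat shock genes divided, with a median of -0.07. Hspa1a (1.07, SE 0.39) and Hspa1b (0.90, SE 0.30), inducible HSP70 genes that are near-identical copies, were positive, while the small chaperone Hspb1 (-0.57, SE 0.19) and the HSP90 gene Hsp90aa1 (-0.37, SE 0.13) were negative. The integrated stress response list had a median of 0.06, with Stc2 (1.44, SE 0.62) positive and Pycr1 (-0.92, SE 0.37) negative. Cytokine and gp130 genes (0.19), TGF-beta and BMP response genes (-0.02) and hypoxia and glycolysis genes (-0.04) had at most 1 member in each direction at an unadjusted p under 0.05. Without HET 48 h replicate 3 the integrated stress response list had 7 of 37 members negative at that p and a median of -0.11.

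Markers of other cells differed between the groups as well, and their part in the differences above was not tested beyond a covariate. With the non-neuronal markers as a covariate, limma called 0 genes for the difference of change, with 2017 at an unadjusted p under 0.05. The 25 fibroblast and matrix markers, all measured, summed to 66120 to 128800 normalized counts in WT and 56100 to 79260 in HET at 12 h, and to 126400 to 231800 in WT and 86450 to 163800 in HET at 48 h. HET replicate 3 was the lowest at 48 h. The median difference of these markers was -0.18, and 0.17 without HET 48 h replicate 3. The 24 of 25 Schwann cell and satellite glia markers summed to 67380 to 70840 in WT and 65130 to 74350 in HET at 48 h, with a median difference of 0.17 that was 0.44 without HET 48 h replicate 3. Their median HET minus WT level was -0.24 at 12 h and 0.035 at 48 h. The 17 of 18 macrophage markers summed to 2675 to 5347 in WT and 3064 to 4342 in HET at 12 h, which overlap. At 48 h they summed to 5591 to 8012 in WT and 4035 to 5434 in HET, with no overlap. Their median difference was -0.32, with 0 of 17 at an unadjusted p under 0.05. The 14 endothelial markers, all with a positive difference (median 0.42), summed to 21880 to 28140 in WT and 13600 to 22600 in HET at 12 h, and to 13190 to 17570 in WT and 13330 to 18140 in HET at 48 h. Their median HET minus WT level was -0.36 at 12 h and 0.01 at 48 h. The sums of the 2 genotypes overlapped at both times, and HET 12 h replicate 2 was the lowest at 12 h, at 13600. The median difference of change was 0.25 without HET 12 h replicate 2, 0.27 without HET 48 h replicate 3 and 0.28 without WT 48 h replicate 2. Robo4 (0.94, SE 0.38) and Cdh5 (0.94, SE 0.36) were at an unadjusted p under 0.05. The 12 of 16 neutrophil and red cell markers summed to 114 to 185 in WT at 48 h and to 155, 270 and 2471 in HET replicates 1, 2 and 3. Their median difference of 0.61 was -0.25 without HET 48 h replicate 3. No marker of these lists was at 0 in any group.

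Families defined only by the letters of the gene symbol, 531 with at least 5 members, were ranked by the median of their members. The Card family of caspase recruitment domain adaptors had the highest median with all cultures, 0.97, with 5 of 5 positive and 3 of 5 at an unadjusted p under 0.05, among them Card9 (1.21) and Card10 (0.97). Its median was 0.88 without HET 48 h replicate 3, below the Wfdc family at 0.94. The Gbp family of interferon-induced guanylate-binding proteins had 0.68, with 7 of 7 positive and 3 of 7 at that p, led by Gbp2, Gbp9 (1.27) and Gbp5 (1.19). Its median was 0.45 without HET 48 h replicate 3. All 7 had lower means at 48 h than at 12 h in both genotypes. The Mrgpra itch receptors had 0.84 with 0 of 5 at that p. Both the Gbp and the Mrgpra genes are close copies, so single members are uncertain. Among the families at the other end were Cdca (-0.49) and Mcm (-0.35) genes of cell division and replication and the Serpinb protease inhibitors (-0.35), 4 of 15 of them negative at an unadjusted p under 0.05. These medians were, without HET 48 h replicate 3, -0.19, -0.04 and -0.22. Only Cdca7l (-0.93) in Cdca and Mcm7 (-0.42) in Mcm reached that p with all cultures. The Pax and Uchl families, not described here, had lower medians than Mcm and Serpinb with all cultures. Serpinb1a went from a mean of 4280 to 24950 in WT and from 3619 to 10400 in HET, a difference of -1.23 (SE 0.53). In the Adra family (-0.33), all 6 members were negative, Adra2a and Adra1b (-1.63, SE 0.74) at an unadjusted p under 0.05. Histone genes, 55 of them, had -0.32, and -0.03 without HET 48 h replicate 3.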

How the data were processed

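RNA sequencing of 18 cultures was deposited as 1 table of 17198 genes. CASAVA 1.8.2, edgeR and the build mm10 are named in the submitters' processing notes; the aligner and the counting method are not given in the sources used here. Per the file headers, the values used are the authors' normalized counts, a signal in adjusted units with column totals from 41509705 to 41509874, so depth per culture is unknown and no interval or floor was computed. The authors' plain adjusted signal columns served as an alternative. After centring each gene, these columns have rank 15 where 17 is possible; how the other directions were removed is not in the headers. The deposited FPKM, log2 fold change, p-value and rank score columns of the authors were not used.

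Values were taken as log2(value + 1), and a minimum mean of 1 removed 0 genes. limma 3.58.1 (R 4.3.3) fitted 1 coefficient per group to 18 cultures, using eBayes with trend (residual degrees of freedom 12, prior 4.97) and Benjamini-Hochberg adjustment over all genes at a threshold of 0.05. The rank was computed on the plain columns only. As far as the normalized counts lack the same directions, the residual degrees of freedom are too high. A pseudocount of 1 understates changes of low genes. The script was tested on simulated data. Named genes are Dynlrb1, the 15 largest differences in each direction among genes with a mean of at least 50 and an unadjusted p under 0.05 with the same sign with and without HET 48 h replicate 3, and the 3 of lowest p. Within a list, the rule was up to 4 members of largest difference in the direction of its median at an unadjusted p under 0.05, and the largest in the other direction. The text departs from it: the other list members named, among them Nr4a1, Egr3, Gap43, Atf3, Jun, Sox11, Ret, Junb, Pmaip1, Ccng1, Hspa1b and Hsp90aa1, and single members of families were chosen after their values were seen, and some members the rule covers are not described. A symbol family needed at least 5 members with a mean of at least 10. Lists and genes were chosen with earlier results of these data known. Promoters were the first listed per gene in a RefSeq table (GRCm38.p6). Alternatives were the plain columns, quantile normalization, other pseudocounts and filters, the 12 cultures alone, a replicate block, covariates and each of these 12 cultures left out.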

Additional observations from a re-analysis of the deposited data

Results flagged for a closer look

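In 2 named genes, all WT and all HET cultures at 48 h lay on opposite sides of their own genotype's 12 h mean. Gm15441 had a difference of change of -2.73 (log2): its WT cultures moved by 1.27 to 2.50 and its HET cultures by -1.26 to -0.79. Its normalized counts at 12 h were 3.87, 2.83 and 1.27 in WT against 11.8, 13.2 and 12.7 in HET, so the genotypes were apart before 48 h. Prdm8 had a difference of 0.70: its WT cultures moved by -0.74 to -0.48 and its HET cultures stood at 0.03 to 0.11. Its HET counts at 48 h (593, 560 and 576) lay inside the range of those at 12 h (493 to 622). The HET change did not pass in limma (adjusted p 0.684). At 12 h every HET culture of Prdm8 was already below every WT culture (651 to 671). HET minus WT was -0.27 at 12 h and 0.43 at 48 h. The difference itself was tested in limma and did not pass in either gene (adjusted p 0.548), and both kept their sign in every fit that left out 1 culture, from -2.97 to -2.34 and from 0.62 to 0.79.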

How the results depend on the processing

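limma called 0 genes for the difference of change under every alternative run, and the smallest adjusted p among these was 0.108. Setting aside fits without 1 culture, every named gene kept its direction. So did the list medians, apart from the 2 near 0: the pan-sensory median was -0.0028 with quantile normalization, -0.032 with covariates for the removed directions and -0.020 with those plus the block, and the TGF-beta median was 0.0040 and 0.0042 under the first and last of these. A replicate block gave 1295 positive and 1272 negative genes at an unadjusted p under 0.05 (smallest adjusted p 0.125), and with the removed directions 1337 and 1326. Same-numbered WT and HET cultures correlated at r of 0.19, 0.03 and 0.16 at 12 h and 0.32, 0.21 and 0.46 at 48 h; not all exceeded 0.1, so the pairing is not established, and this fit gives no value for time. The HET time count was 1596 with quantile normalization, 1243 with the 12 cultures alone and 169 with non-neuronal markers as a covariate. Covariates from the removed directions and from Xist were chosen after seeing the data, as were all alternatives for the time counts. The cause of each shift was not tested.

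Leaving out each of the 12 cultures of the contrast gave 364 to 867 positive and 310 to 1057 negative genes and 0 to 4886 time calls in HET. The list medians ran from 0.017 to 0.23 for cytokines, 0.067 to 0.37 for sterols, -0.066 to 0.12 for apoptosis, -0.11 to -0.020 for dynein, 0.15 to 0.72 for peptidergic nociceptors, -0.24 to -0.13 for lysosomes, -0.00019 to 0.44 for Schwann cells, -0.27 to -0.013 for regeneration, 0.37 to 0.83 for immediate early genes and -0.11 to -0.0046 for tubulins. Of 26 medians, 7 changed sign without HET 48 h replicate 3. Dynlrb1, near 0, ran from -0.12 without HET 12 h replicate 1 to 0.043 without WT 12 h replicate 5, and was 0.032 without HET 12 h replicate 2.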
